A study of Homo sapiens with 24 samples.

Results

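The genes described here encode enzymes that make phosphatidylcholine and phosphatidylethanolamine, the main phospholipids of cell membranes. They are 10 genes chosen by symbol (PEMT, CHKA, CHKB, PCYT1A, PCYT2, CHPT1, CEPT1, ETNK1, PISD and PTDSS1) among the 26645 gene entries of a raw read count table. All 10 have a row in that table, and 9 had enough counts to be tested, CHKB being the exception. RNA came from MB468 cells (MDA-MB-468, a triple-negative breast cancer line whose growth depends on methionine, Met) and from MB468res-R8, a derivative line that is insensitive to Met stress. Cells of each line were taken from Met+ medium, which contained 100 µM Met, as the 0 h samples. The others were taken 0.5, 2 or 12 h after Met-Hcy+ medium, in which 370 µM homocysteine (Hcy) stood in for Met, was given. All 8 groups held 3 libraries, and both media shared dialyzed serum, vitamin B12, glutamine and cysteine. The resistant line is represented by R8 alone, so properties of this derivative and of insensitivity in general cannot be told apart. The 0 h libraries are the only Met+ libraries analysed here, so the medium switch and time in culture cannot be told apart.

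Phosphatidylcholine is made from choline by the Kennedy pathway or from phosphatidylethanolamine by methylation. In the choline branch, choline kinases (CHKA, CHKB) phosphorylate choline, PCYT1A makes CDP-choline in the rate-limiting step, and CHPT1 or CEPT1 joins it to diacylglycerol. In the methylation route, PEMT adds methyl groups from S-adenosylmethionine (SAM), which cells make from Met, and it is best known from liver. Phosphatidylethanolamine itself comes from ethanolamine through ETNK1, PCYT2 and CEPT1, or from phosphatidylserine, which PTDSS1 makes from phosphatidylcholine by exchanging its head group and which PISD decarboxylates in mitochondria. Met stress acts on the supply of SAM, and the comparisons below set the transcript of the SAM-consuming enzyme beside those of the routes that do not use SAM directly.

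Total counts ran from 11745553 to 36496655 per library. The epithelial markers EPCAM, KRT8, KRT18, CDH1 and EGFR summed to 5000 to 7680 CPM (counts scaled to the library size) in every library. Of the receptors that are low in triple-negative tumours, PGR reached at most 0.0983 CPM, ESR1 lay between 4.15 and 22.6 CPM and ERBB2 between 38.3 and 97.3 CPM. Most markers of other cell types were low. PTPRC, CD3E, COL1A2 and DCN stayed at or under 0.199 CPM, and the endothelial markers PECAM1, CDH5 and VWF summed to at most 5.9 CPM. CD68 reached 10 CPM and PDGFRB 0.656 CPM. The fibroblast marker COL1A1 was not low, at 14.6 to 73.2 CPM. The MB468 2 h replicate 2 library held 8251 counts of the small nuclear RNA RN7SK against 44 to 357 in the other 23 libraries, and the calls at 2 h that rest on it are given with and without it under the main scaling. Whether replicates were separate cultures is not stated in the labels, so p-values measure the spread between these libraries.

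The start regions of 4 members are shown because their responses at 12 h differed between the lines: PEMT as the SAM-consuming enzyme, PCYT2 for its fall, and CHPT1 and PISD because they moved in opposite directions in the lines. Each runs 5′ to 3′ on the strand of the gene from 250 bases before the RefSeq transcription start to 50 bases after it (GRCh38.p14). Capitals mark matches, on either strand, to any of 4 motifs searched: the sterol regulatory element TCACNCCAC, the ATF4 composite element TGATGNAA, the CCAAT box (ATTGG on the other strand) and the E-box CACGTG. These motifs occur in 1.13%, 3.62%, 34.6% and 7.26% of the 35116 RefSeq start regions of this length. No letters of different motifs overlap in the regions shown. Where RefSeq lists more than 1 start, the start nearest the 5′ end of the GENCODE gene is given.
PEMT, chr17:17591659-17591958, minus strand: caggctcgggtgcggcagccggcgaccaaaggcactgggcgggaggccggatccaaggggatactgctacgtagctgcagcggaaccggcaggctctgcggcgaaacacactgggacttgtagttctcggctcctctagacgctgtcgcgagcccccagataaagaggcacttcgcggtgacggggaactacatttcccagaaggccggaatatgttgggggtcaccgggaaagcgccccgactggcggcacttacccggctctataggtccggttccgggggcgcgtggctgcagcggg
PCYT2, chr17:81911350-81911649, minus strand: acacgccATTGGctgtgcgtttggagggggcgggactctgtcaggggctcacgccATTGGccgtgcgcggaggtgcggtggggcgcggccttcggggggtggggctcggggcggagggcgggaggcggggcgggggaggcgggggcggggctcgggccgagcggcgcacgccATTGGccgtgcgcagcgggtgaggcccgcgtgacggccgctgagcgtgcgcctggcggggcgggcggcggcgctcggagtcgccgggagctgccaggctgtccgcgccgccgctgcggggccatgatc
CHPT1, chr12:101697390-101697689, plus strand: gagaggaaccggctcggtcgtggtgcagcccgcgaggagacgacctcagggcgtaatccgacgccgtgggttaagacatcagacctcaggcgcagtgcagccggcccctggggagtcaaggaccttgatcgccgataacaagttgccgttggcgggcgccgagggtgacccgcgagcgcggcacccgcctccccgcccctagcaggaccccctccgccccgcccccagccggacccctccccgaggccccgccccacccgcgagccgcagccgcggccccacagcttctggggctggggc
PISD, chr22:31662166-31662465, minus strand: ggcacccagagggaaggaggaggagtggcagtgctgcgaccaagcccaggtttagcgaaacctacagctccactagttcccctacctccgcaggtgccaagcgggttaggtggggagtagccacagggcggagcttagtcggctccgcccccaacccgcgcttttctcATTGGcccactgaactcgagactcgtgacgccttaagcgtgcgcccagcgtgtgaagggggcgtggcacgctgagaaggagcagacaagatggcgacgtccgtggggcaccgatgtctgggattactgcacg
The PCYT2 region held 3 CCAAT boxes, at positions -243, -195 and -78 from the start, and the PISD region held 1, at -82. No match to the 4 motifs was found in the PEMT and CHPT1 regions shown. Elsewhere among the 8 members with an entry, PCYT1A held an ATF4 composite element at -4, CHKB held 3 CCAAT boxes, an alternative start of PEMT held an E-box at -83, and CEPT1 and ETNK1 held none. CCAAT boxes are common, and matches are a description of the letters and not of factor binding.

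All members lie on autosomes. In GENCODE on GRCh38, PEMT spans chr17:17505563-17591708 (minus strand, 7 exons in the canonical transcript) and PCYT2 spans chr17:81900958-81911432 (minus strand, 13 exons). CHPT1 spans chr12:101696947-101744140 (plus strand, 9 exons) and PISD spans chr22:31618491-31662221 (minus strand, 8 exons). The library kit does not mark strand, so reads in stretches shared with another gene cannot be assigned by direction. Such stretches made up 38.3% of the canonical transcript of PCYT2, 29.4% of CEPT1, 28.4% of PEMT, 23.2% of CHKA, 11.1% of CHPT1, 8.89% of PCYT1A and 4.41% of PISD, and none of ETNK1 or PTDSS1. For CHKB the share was 95%, mostly with the readthrough entry CHKB-CPT1B.

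Per transcript length, CHKA had the highest mean level of the members in Met+ medium, and the rate-limiting PCYT1A and ETNK1 the lowest of the tested members in MB468. The lengths are those of the canonical transcripts, from 1021 bases for PEMT to 7063 for ETNK1. Which transcripts these cells use was not examined, and the order of the genes depends on it. In MB468 at 0 h, CHKA stood at 37 ± 2.11 RPKM (mean ± SD, n = 3; reads scaled by transcript length and library total), PTDSS1 at 27 ± 0.75, CEPT1 at 26.3 ± 0.354, PEMT at 24.1 ± 0.31 and CHPT1 at 24.1 ± 0.438. PISD followed at 21.5 ± 0.407 RPKM, PCYT2 at 17 ± 0.244, PCYT1A at 9.19 ± 0.168 and ETNK1 at 7.25 ± 0.273. The order held gaps larger than the library ranges except between PTDSS1 and CEPT1, whose ranges met (26.2 to 27.6 and 25.9 to 26.5 RPKM), and between PEMT and CHPT1 (23.7 to 24.3 and 23.6 to 24.4 RPKM). In MB468res-R8 at 0 h, CHKA (26.1 ± 1.64 RPKM), CEPT1 (25.3 ± 0.178) and PTDSS1 (24.9 ± 0.123) were the highest, with a CHKA range of 24.8 to 28 that overlapped those of CEPT1 (25.1 to 25.5) and PTDSS1 (24.8 to 25). PEMT stood at 22 ± 0.68, PISD at 17.5 ± 0.326 and CHPT1 at 17.1 ± 0.485. ETNK1 was again lowest of the tested members, at 5.91 ± 0.703 RPKM. CHKB, the choline kinase found in muscle and other tissues, was at 0.0822 and 0.103 RPKM in the lines, with 49 counts over all 24 libraries and 0 counts in 7 of them. CHKB-CPT1B, which covers most of CHKB, was listed at 0 counts in all 24 libraries, and how reads shared by overlapping genes were counted is not given in the sources used here. The CHKB values are therefore no measure of whether these cells express the gene.

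**Figure D1:**
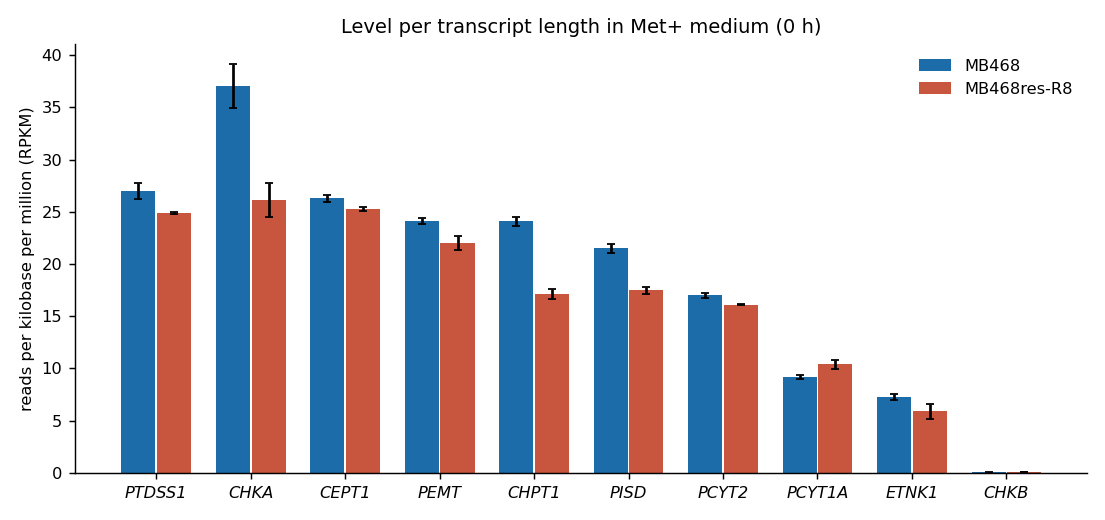
Mean level per transcript length (RPKM, y axis from 0) of each gene in MB468 (blue) and MB468res-R8 (red) in Met+ medium, with SD over 3 libraries as error bars. CHKA is the tallest bar in MB468 at 37 RPKM, PEMT stands at 24.1 and 22 RPKM, PCYT1A at 9.19 and 10.4 RPKM, and CHKB is close to 0.

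PEMT changed little. Its normalized read counts in MB468 were 562, 567 and 549 at 0 h, 499, 510 and 581 at 0.5 h, 606, 610 and 557 at 2 h, and 480, 515 and 512 at 12 h. In MB468res-R8 they were 531, 498 and 516 at 0 h, 484, 466 and 560 at 0.5 h, 490, 534 and 548 at 2 h, and 561, 532 and 550 at 12 h. In MB468 the 12 h libraries all lay below the 0 h libraries, in MB468res-R8 all 12 h libraries lay above the 0 h ones, and at 0.5 h replicate 3 was the highest library in both lines. The log2 change at 12 h was -0.16 ± 0.0705 (SE) in MB468 (edgeR quasi-likelihood test, Benjamini-Hochberg adjusted p = 0.0429) and 0.09 ± 0.0722 in MB468res-R8 (adjusted p = 0.297). The response of MB468res-R8 exceeded that of MB468 by 0.25 ± 0.101 (adjusted p = 0.035 for the difference itself). These calls were near the threshold: leaving out MB468 0 h replicate 1, MB468 0 h replicate 2 or MB468 12 h replicate 1 gave adjusted p of 0.081, 0.0953 and 0.139 for the fall in MB468, and 0.0581, 0.0656 and 0.0756 for the difference, which also missed the threshold without MB468res-R8 0 h replicate 2 (0.0805) or replicate 3 (0.0506). Without a low-count filter the adjusted p was 0.0798 for the fall and 0.0571 for the difference. With spike-in totals as library sizes, PEMT was called lower in MB468 at 2 h (-0.34, adjusted p = 0.0305) and at 12 h (-0.39, adjusted p = 0.0117). Relative to the median of all genes these values were 0.07 and -0.16. The difference at 12 h was then 0.50 (adjusted p = 0.0366), and MB468res-R8 at 12 h was at 0.11 (adjusted p = 0.591).

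Members of the choline route did not move as a group. In MB468 at 12 h, PCYT1A rose (log2 0.20 ± 0.0518, adjusted p = 0.00097), CHPT1 fell (-0.34 ± 0.0604, adjusted p = 3.32e-06), CHKA fell (-0.12 ± 0.0531, adjusted p = 0.048), and CEPT1 was at 0.04 with a 95% interval of -0.06 to 0.14. In MB468res-R8 at 12 h, CHPT1 rose (0.32 ± 0.0628, adjusted p = 3.11e-05), whereas PCYT1A (0.07, interval -0.04 to 0.17), CHKA (-0.09, interval -0.20 to 0.03) and CEPT1 (-0.06, interval -0.16 to 0.05) did not pass the test. The fall of CHKA in MB468 lost its call without any library of MB468 0 h or 12 h except MB468 0 h replicate 2 (adjusted p from 0.0621 to 0.117).

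CHPT1, the cholinephosphotransferase of the Golgi, moved in opposite directions. Its normalized counts in MB468 were 844, 869 and 870 at 0 h, 944, 966 and 945 at 0.5 h, 796, 804 and 879 at 2 h, and 693, 658 and 680 at 12 h. In MB468res-R8 they were 617, 605 and 634 at 0 h, 707, 753 and 729 at 0.5 h, 675, 599 and 702 at 2 h, and 748, 797 and 770 at 12 h. At 0 h every MB468 library was above every MB468res-R8 library, and at 12 h the order was turned without overlap. The difference between the responses was 0.66 ± 0.0872 on the log2 scale (edgeR quasi-likelihood test, adjusted p = 2.03e-08), a ratio of 1.58. The line difference was -0.48 ± 0.0625 at 0 h (adjusted p = 2.12e-08) and 0.19 ± 0.0608 at 12 h (adjusted p = 0.00609), the latter not called with spike-in totals as library sizes (0.14, adjusted p = 0.382). SYCP3, which overlaps CHPT1, held 0 to 14 counts per library.

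PCYT1A was higher in MB468res-R8 than in MB468 before the switch, and its ranges at 2 h were also separate. In MB468 its counts were 1179, 1168 and 1133 at 0 h, 996, 944 and 990 at 2 h, and 1337, 1279 and 1367 at 12 h. In MB468res-R8 they were 1362, 1266 and 1360 at 0 h, 1238, 1200 and 1290 at 2 h, and 1422, 1356 and 1398 at 12 h. The 3 MB468res-R8 libraries at 0 h were above those of MB468 (log2 difference 0.20 ± 0.0528, adjusted p = 0.00184), and at 12 h the groups overlapped (0.07, interval -0.04 to 0.17). CHKA, which phosphorylates choline and also ethanolamine, was lower in MB468res-R8 at 0 h (1754, 1594 and 1539 against 2316, 2146 and 2389 counts, log2 -0.48 ± 0.0549, adjusted p = 9.24e-10) and at 12 h (1519, 1568 and 1533 against 2112, 2114 and 2081, -0.45 ± 0.0543, adjusted p = 1.31e-09). The CHKA responses at 12 h differed by 0.03 between the lines, with an interval of -0.13 to 0.19.

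**Figure D2:**
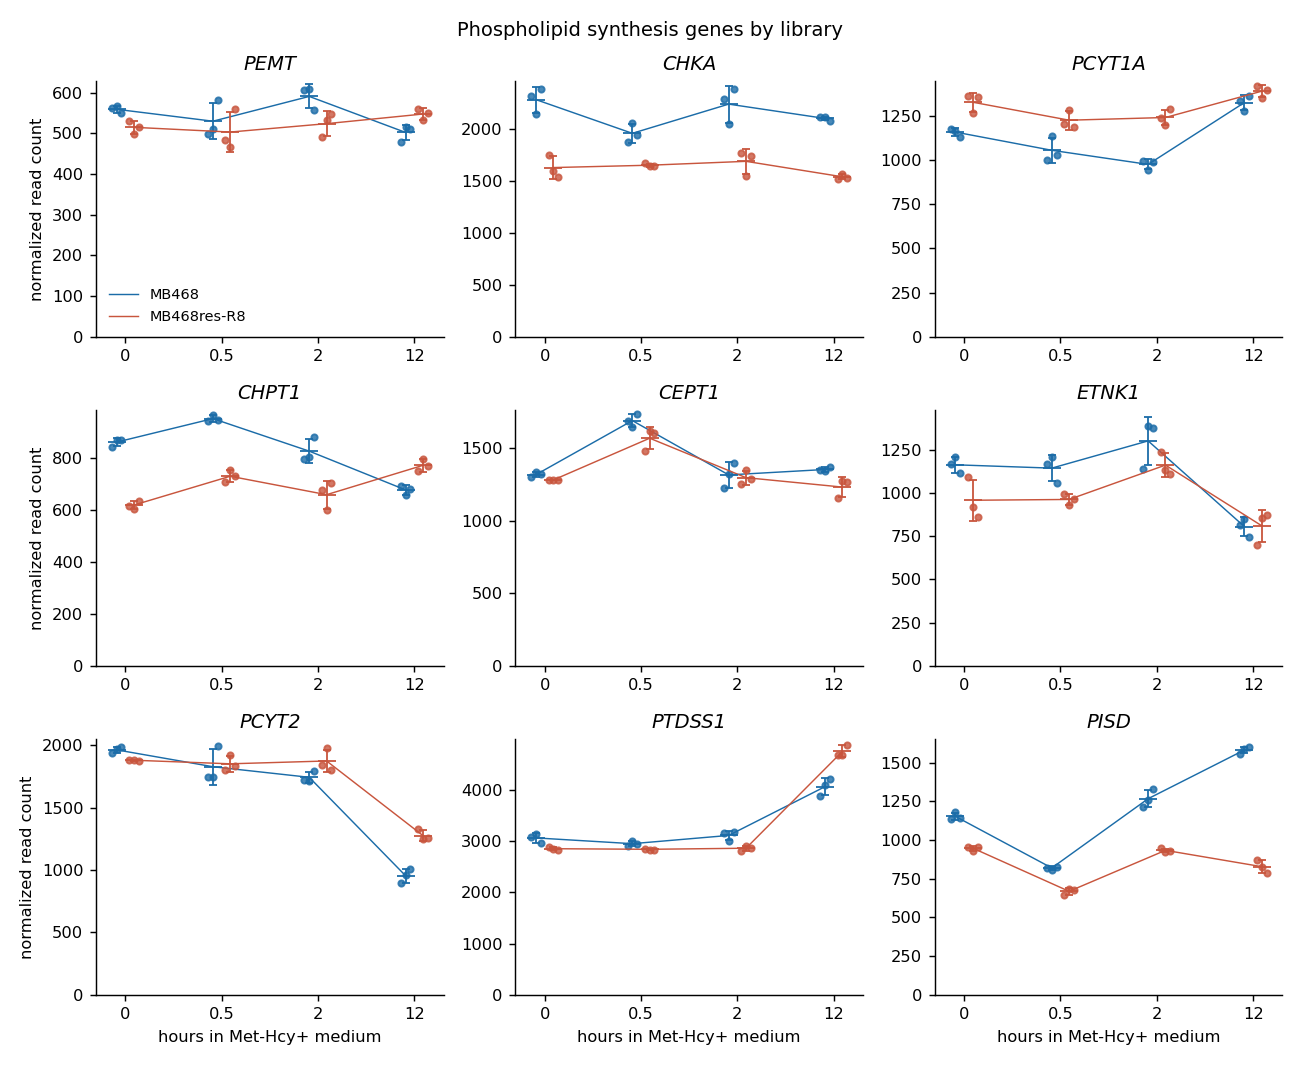
Normalized read counts (y axis from 0) of the 9 tested genes at 0, 0.5, 2 and 12 h (x axis, evenly spaced) in MB468 (blue) and MB468res-R8 (red); points are libraries, dashes and error bars the mean and SD of 3 libraries, and lines join the means. PCYT2 falls at 12 h in both lines, PTDSS1 rises in both, PISD dips at 0.5 h in both, and the 12 h means of PISD separate at 1582 and 828.

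Set within each library, the log2 level of PEMT stood below the mean of CHKA, PCYT1A, CHPT1 and CEPT1 in every library. These levels were not scaled by transcript length, which was 1021 bases for PEMT and 1572 to 5546 bases for those genes. With CHKB kept, the difference was positive in all libraries, from 0.21 (MB468 0.5 h replicate 1) to 0.88 (MB468 2 h replicate 2). Its sign is therefore no ranking of the routes, and only its changes are compared. The log2 level of PEMT minus the mean log2 level of CHKA, PCYT1A, CHPT1 and CEPT1 was -1.22, -1.20 and -1.27 in MB468 at 0 h, -1.40, -1.44 and -1.21 at 0.5 h, -1.01, -0.97 and -1.23 at 2 h, and -1.40, -1.27 and -1.31 at 12 h. In MB468res-R8 it was -1.14, -1.17 and -1.14 at 0 h, -1.31, -1.44 and -1.13 at 0.5 h, -1.25, -1.05 and -1.12 at 2 h, and -1.05, -1.19 and -1.13 at 12 h. At 12 h the mean had moved by -0.10 in MB468 and 0.03 in MB468res-R8, and the responses differed by 0.12. At 0.5 h it had moved by -0.12 and -0.15, and at 2 h by 0.16 (0.11 without MB468 2 h replicate 2) and 0.01, in each case with ranges that overlapped those at 0 h. In MB468 the 12 h values reached the lowest 0 h value, -1.27, without going above it, and in MB468res-R8 the 12 h range enclosed the 0 h range. With CHKB kept in the route, as first planned, the changes at 12 h were -0.02, 0.16 and 0.18, and the change at 2 h in MB468 was 0.28 (0.18 without MB468 2 h replicate 2), on a within-group SD of 0.149 to which the few CHKB counts contribute. Against PCYT1A alone the value moved further in MB468, from -1.07, -1.04 and -1.04 at 0 h to -0.72, -0.63 and -0.83 at 2 h and -1.47, -1.31 and -1.41 at 12 h. In MB468res-R8 it was -1.35, -1.34 and -1.39 at 0 h and -1.34, -1.35 and -1.34 at 12 h. The change at 2 h in MB468 was 0.33 (0.28 without MB468 2 h replicate 2). The change at 12 h was -0.35 in MB468 and 0.02 in MB468res-R8, and the range of the MB468 libraries at 12 h enclosed that of MB468res-R8. These scores are levels of RNA and carry no test.

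**Figure D3:**
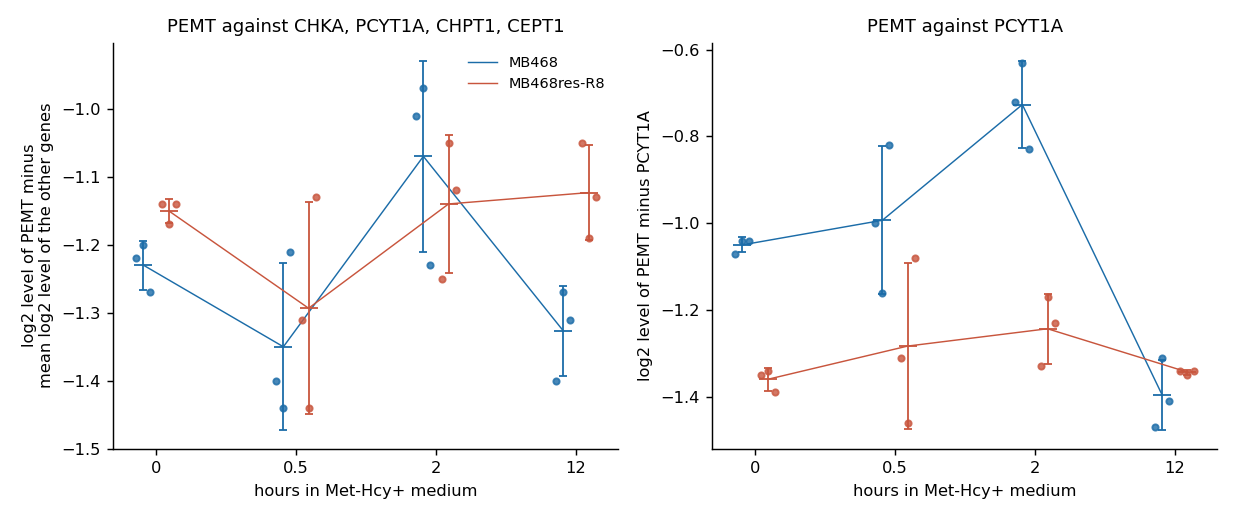
Log2 level of PEMT minus the mean log2 level of CHKA, PCYT1A, CHPT1 and CEPT1 (left) or minus PCYT1A (right) per library at each hour in Met-Hcy+ medium, in MB468 (blue) and MB468res-R8 (red), with mean and SD of 3 libraries; the y axes do not start at 0 and have different ranges. On the right the lines start apart at 0 h (-1.07 to -1.04 against -1.39 to -1.34) and overlap at 12 h.

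The ethanolamine route fell at 12 h at its kinase ETNK1 and at PCYT2. PCYT2, which makes CDP-ethanolamine and is regarded as the controlling step of that route, had the largest fall of the members. Its counts in MB468 were 1938, 1970 and 1986 at 0 h, 1744, 1749 and 1995 at 0.5 h, 1724, 1712 and 1797 at 2 h, and 897, 960 and 1007 at 12 h. In MB468res-R8 they were 1883, 1886 and 1875 at 0 h, 1802, 1924 and 1832 at 0.5 h, 1846, 1978 and 1802 at 2 h, and 1327, 1247 and 1257 at 12 h. At 12 h all libraries lay below all 0 h libraries of their line, and MB468 below MB468res-R8. The log2 change at 12 h was -1.04 ± 0.0514 in MB468 (adjusted p = 6.64e-21, a ratio of 0.486) and -0.56 ± 0.0514 in MB468res-R8 (adjusted p = 2.81e-12, a ratio of 0.679), and the responses differed by 0.48 ± 0.0726 (edgeR quasi-likelihood test, adjusted p = 3.43e-07). ANAPC11, a subunit gene of the anaphase-promoting complex that overlaps PCYT2, changed by -0.40 in MB468 and -0.32 in MB468res-R8, and its responses differed by 0.08 (adjusted p = 0.443). NPB, also overlapping, held 0 to 30 counts per library. The part of shared reads in the PCYT2 values was not tested.

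ETNK1, the ethanolamine kinase, had counts of 1170, 1210 and 1116 in MB468 at 0 h and 818, 853 and 748 at 12 h. In MB468res-R8 they were 1094, 921 and 864 at 0 h and 703, 854 and 877 at 12 h, and these ranges overlapped. It fell in MB468 (log2 -0.54 ± 0.0834, adjusted p = 1.48e-06) and changed by -0.25 ± 0.0863 in MB468res-R8 (adjusted p = 0.0121). The latter call was lost without MB468res-R8 0 h replicate 1 (-0.12, adjusted p = 0.237) or MB468res-R8 12 h replicate 1 (-0.13, adjusted p = 0.169). The difference between the lines was 0.28 ± 0.12 (adjusted p = 0.0452) and missed the threshold without any of 7 of the 12 libraries compared (adjusted p from 0.0611 to 0.127) and with the replicate number as a block (adjusted p = 0.0523). CEPT1, which finishes both Kennedy branches, was between 1154 and 1372 counts in all 12 libraries at 0 and 12 h.

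Under the main scaling, the phosphatidylserine route genes PTDSS1 and PISD both rose in MB468 at 12 h and split in MB468res-R8. PTDSS1, the serine exchange enzyme, rose in both lines at 12 h. Its counts in MB468 were 3085, 3147 and 2962 at 0 h and 3893, 4096 and 4209 at 12 h, and in MB468res-R8 they were 2887, 2848 and 2826 at 0 h and 4692, 4681 and 4889 at 12 h. At 0.5 and 2 h all 12 libraries lay between 2815 and 3171. The log2 change at 12 h was 0.41 ± 0.0386 in MB468 (adjusted p = 3.1e-12) and 0.74 ± 0.039 in MB468res-R8 (adjusted p = 2.03e-19), with a difference of 0.33 ± 0.0548 (edgeR quasi-likelihood test, adjusted p = 2.07e-06). With spike-in totals as library sizes, the rise in MB468 was not called (0.17, adjusted p = 0.25), and that in MB468res-R8 was (0.76, adjusted p = 7.21e-08).

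PISD, the mitochondrial phosphatidylserine decarboxylase, moved apart in the lines. In MB468 its counts were 1135, 1179 and 1145 at 0 h, 822, 808 and 829 at 0.5 h, 1214, 1261 and 1327 at 2 h, and 1558, 1590 and 1599 at 12 h. In MB468res-R8 they were 957, 930 and 957 at 0 h, 645, 684 and 677 at 0.5 h, 946, 925 and 930 at 2 h, and 870, 828 and 786 at 12 h. The dip at 0.5 h was of similar size (log2 -0.49 ± 0.0536 in MB468 and -0.51 ± 0.0551 in MB468res-R8), and the difference of these changes was -0.01 with an interval of -0.17 to 0.14. At 12 h PISD rose in MB468 (0.46 ± 0.0499, adjusted p = 1.35e-10) and fell in MB468res-R8 (-0.19 ± 0.0535, adjusted p = 0.00178), a difference of -0.65 ± 0.0731 (edgeR quasi-likelihood test, adjusted p = 5.69e-10). The level at 12 h in MB468res-R8 was 0.524 times that in MB468 (log2 -0.93 ± 0.0511, adjusted p = 1.33e-19), against 0.822 times at 0 h. With spike-in totals as library sizes, neither the rise in MB468 (0.22, adjusted p = 0.15) nor the fall in MB468res-R8 (-0.18, adjusted p = 0.304) was called. Nor was the difference of these responses (-0.40, adjusted p = 0.0843), but the line difference at 12 h was (-0.99, adjusted p = 3.2e-12). SFI1, which overlaps PISD over a small stretch, fell in both lines (log2 -1.07 and -0.67).

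**Figure D4:**
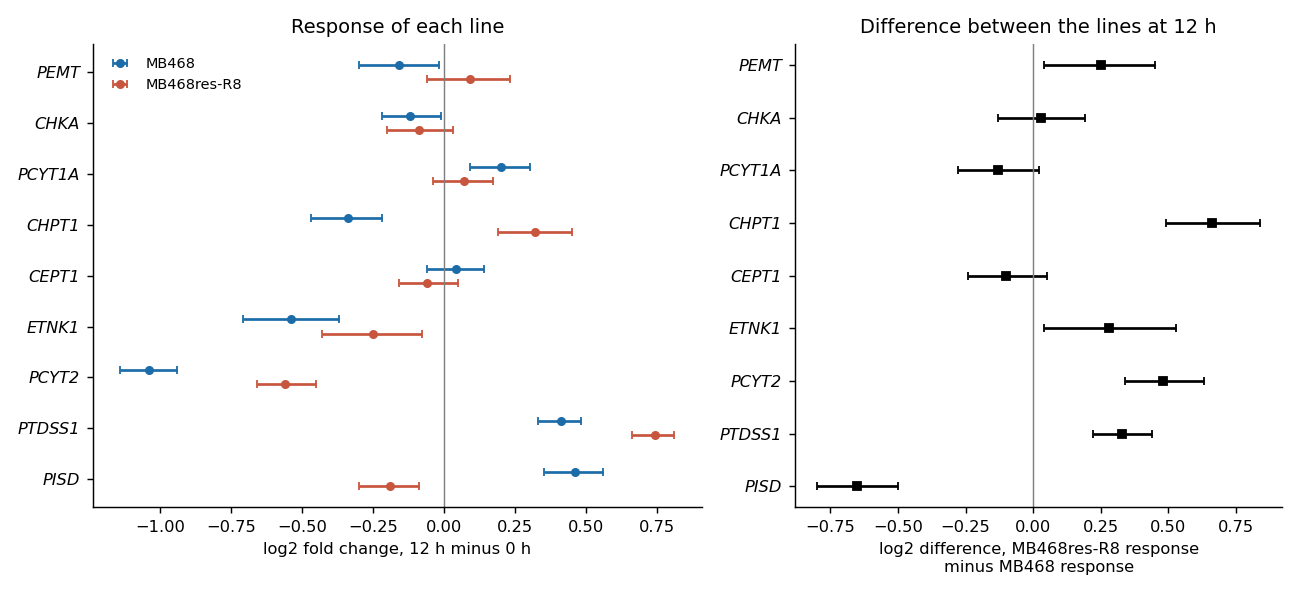
Left, log2 fold change from 0 to 12 h of each tested gene in MB468 (blue) and MB468res-R8 (red). Right, the difference of these responses (black squares). Both have 95% intervals derived from the F statistic of the edgeR quasi-likelihood test. CHPT1 and PISD lie on opposite sides of 0 in the lines, PCYT2 is at -1.04 and -0.56, and the intervals of the difference exclude 0 for 6 genes.

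Counted over the members, 8 of 9 tested genes were called in MB468 at 12 h, beside 70.8% of all 14741 tested genes. The 3 that rose were PCYT1A, PISD and PTDSS1 (36.1% of all genes rose), and the 5 that fell were PEMT, CHKA, PCYT2, CHPT1 and ETNK1 (34.7% of all genes fell). In MB468res-R8 at 12 h, 5 of 9 were called beside 61.3% of all genes. CHPT1 and PTDSS1 rose (30.2% of all genes), and PCYT2, ETNK1 and PISD fell (31.1%). The responses differed between the lines for 6 of 9 members, against 56.5% of all genes, with 5 differences positive (26.2% of all genes) and PISD negative (30.3%). The totals for MB468res-R8 and for the difference lie near the share of all genes, and the 5 falls in MB468 and the 5 positive differences are larger shares of the 9 members than of all genes. These falls include PEMT and CHKA, and these differences include PEMT and ETNK1. Those calls were near the threshold and were lost on leaving out single libraries, so the larger shares depend on them. Whether 9 genes could show such shares by chance was not tested. The median log2 change of the 9 tested members was -0.12 in MB468 (0.01 over all genes), -0.06 in MB468res-R8 (-0.02) and 0.25 for the difference (-0.05).

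Under the main scaling, fewer members were called earlier after the switch. With spike-in totals as library sizes, more were called in MB468 at 2 h than at 12 h, beside 64.5% and 57.4% of all genes. At 0.5 h in MB468, 4 of 9 were called, beside 33.9% of all genes: CEPT1 rose (0.36 ± 0.051, adjusted p = 2.96e-07), and CHKA (-0.22 ± 0.0547, adjusted p = 0.00143), PCYT1A (-0.14 ± 0.0543, adjusted p = 0.0474) and PISD fell. In MB468res-R8 at 0.5 h, 3 of 9 were called beside 33.7% of all genes: CEPT1 rose (0.29 ± 0.0512, adjusted p = 1.38e-05), CHPT1 rose (0.24 ± 0.0636, adjusted p = 0.00297) and PISD fell. The CEPT1 counts at 0.5 h, 1689, 1647 and 1733 in MB468 and 1483, 1616 and 1606 in MB468res-R8, exceeded all 0 h libraries (1278 to 1333). With spike-in totals as library sizes neither CEPT1 rise was called, at 0.14 in MB468 (adjusted p = 0.443) and 0.33 in MB468res-R8 (adjusted p = 0.0827), nor was that of CHPT1 in MB468res-R8 (0.28, adjusted p = 0.207). By 2 h CEPT1 was back at 1223, 1323 and 1400 in MB468 and 1255, 1348 and 1286 in MB468res-R8. The PCYT1A call at 0.5 h in MB468 was lost without a low-count filter (adjusted p = 0.113) and without any of 4 libraries, MB468 0.5 h replicates 1 and 3 and MB468 0 h replicates 1 and 2 (adjusted p from 0.0943 to 0.204).

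At 2 h in MB468, PCYT1A (-0.25 ± 0.0559, adjusted p = 0.00115) and PCYT2 (-0.17 ± 0.0516, adjusted p = 0.0175) fell, 2 of 9 members beside 16.3% of all genes. Leaving out MB468 2 h replicate 2, the library with many RN7SK counts, gave -0.16 (adjusted p = 0.0676) for PCYT2 and -0.23 (adjusted p = 0.00996) for PCYT1A, with 14% of all genes called. The PCYT2 call was also lost without MB468 0 h replicate 2 (0.0516) or MB468 2 h replicate 1 (0.0607). In MB468res-R8 at 2 h, 0 of 9 members were called by edgeR, beside 4.37% of all genes, with ETNK1 (0.27 ± 0.0841) the 1 member at an unadjusted p under 0.05, and DESeq2 called 1 member. The responses of the lines differed for 0 members at 0.5 h (2.9% of all genes) and for 0 at 2 h (5.07%) by edgeR and by DESeq2. At an unadjusted p under 0.05 stood 1 member at 0.5 h, CHKA (0.23, interval 0.08 to 0.39), and 2 at 2 h, PCYT2 (0.17, interval 0.02 to 0.31) and PISD (-0.16, interval -0.31 to -0.01). Without MB468 2 h replicate 2 these 2 h differences were 0.15 (unadjusted p = 0.0538 in edgeR) and -0.17 (unadjusted p = 0.0414), and 4.35% of all genes were called.

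Between the lines in Met+ medium, 6 of 9 members differed, beside 53.5% of all genes. PCYT1A was higher in MB468res-R8, and CHKA, CHPT1, ETNK1 (-0.27 ± 0.0841, adjusted p = 0.00718), PISD (-0.28 ± 0.0523, adjusted p = 1.47e-05) and PTDSS1 (-0.10 ± 0.0395, adjusted p = 0.0248) were lower. PEMT (-0.12, interval -0.26 to 0.03), PCYT2 (-0.06, interval -0.16 to 0.04) and CEPT1 (-0.04, interval -0.14 to 0.06) did not pass the test. With spike-in totals as library sizes these 3 were called lower in MB468res-R8 (PEMT -0.43, PCYT2 -0.37 and CEPT1 -0.35, adjusted p = 0.00776, 0.0117 and 0.0199). At 12 h, 6 of 9 differed beside 73.1% of all genes: PCYT2 (0.42 ± 0.0527, adjusted p = 2.97e-09), CHPT1 and PTDSS1 (0.23 ± 0.0379, adjusted p = 1.32e-06) were higher in MB468res-R8, and CHKA, CEPT1 (-0.14 ± 0.0504, adjusted p = 0.0142) and PISD were lower. With spike-in totals CHPT1 (0.14, adjusted p = 0.382), PTDSS1 (0.18, adjusted p = 0.235) and CEPT1 (-0.18, adjusted p = 0.237) were not called at 12 h. The PTDSS1 call at 0 h was lost without any of 4 libraries, MB468 0 h replicates 1 and 2 and MB468res-R8 0 h replicates 2 and 3 (adjusted p from 0.0599 to 0.126), and the CEPT1 call at 12 h without MB468 12 h replicate 3, MB468res-R8 12 h replicate 1 or MB468res-R8 12 h replicate 3 (adjusted p from 0.0558 to 0.381). The ETNK1 call at 0 h was lost without MB468res-R8 0 h replicate 3 (adjusted p = 0.0521).

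Other genes of phospholipid and methyl-group metabolism were listed by function, 70 in all with 59 tested. In MB468 at 12 h, 10 of them rose and 30 fell, with a median log2 change of -0.26 beside 0.01 over all tested genes (of which 36.1% rose and 34.7% fell). In MB468res-R8 13 rose and 26 fell (median -0.21 beside -0.02, and 30.2% and 31.1% of all genes), and for the difference between the lines 25 were positive and 15 negative (median 0.23 beside -0.05, and 26.2% and 30.3% of all genes). The counts of the single lists that follow are to be read beside the same shares. Of the enzymes that share steps with the members, EPT1, the ethanolamine phosphotransferase also named SELENOI, fell in MB468 (-0.33 ± 0.0466) and rose in MB468res-R8 (0.20 ± 0.0469), a difference of 0.53 ± 0.0661 (adjusted p = 6.71e-09). ETNK2, the second ethanolamine kinase, fell in both lines (-1.29 ± 0.153 and -0.62 ± 0.18), a difference of 0.67 ± 0.237 (adjusted p = 0.015). PTDSS2, the phosphatidylserine synthase that uses phosphatidylethanolamine, was at -0.31 in MB468 (adjusted p = 0.191) and 0.32 in MB468res-R8 (adjusted p = 0.204). PCYT1B, a paralogue of PCYT1A, held 2 counts over all libraries.

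Among 7 tested genes listed as carriers of choline, ethanolamine or lysophosphatidylcholine, 2 rose and 3 fell in MB468 at 12 h, and 1 rose and 2 fell in MB468res-R8. The choline transporter genes SLC44A1 (-0.82 ± 0.0397 in MB468, -0.42 ± 0.0393 in MB468res-R8) and SLC44A2 (-0.85 ± 0.0355 and -0.55 ± 0.0354) fell in both lines, and SLC44A3 rose in both (0.65 ± 0.103 and 0.24 ± 0.103). The SLC44A1 responses differed by 0.41 ± 0.0557 (adjusted p = 5.12e-08). Of 11 tested genes that supply diacylglycerol, 3 rose and 6 fell in MB468, and 3 rose and 5 fell in MB468res-R8. The glycerol-3-phosphate acyltransferase gene GPAM rose (0.92 ± 0.0831 and 0.64 ± 0.0877), whereas GPAT3 fell (-1.89 ± 0.101 and -2.36 ± 0.102). LPIN1, whose product turns phosphatidic acid into diacylglycerol, fell in both lines (-1.55 ± 0.0557 in MB468 and -1.03 ± 0.0559 in MB468res-R8), a difference of 0.52 ± 0.0785 (adjusted p = 4.02e-07).

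Of 7 tested acyl-remodelling genes, 1 rose and 4 fell in MB468, and 3 rose and 4 fell in MB468res-R8. The lysophospholipid acyltransferase genes LPCAT3 (-1.03 ± 0.0539 in MB468 and -0.28 ± 0.0509 in MB468res-R8) and LPCAT4 (-1.12 ± 0.1 and -0.27 ± 0.0968) fell in both lines, with differences of 0.75 ± 0.0741 and 0.84 ± 0.139. Among 14 tested genes of phospholipid breakdown, 2 rose and 6 fell in MB468 and 1 rose and 7 fell in MB468res-R8. The phospholipase D gene PLD2 fell in both lines (-1.15 ± 0.0714 in MB468 and -0.68 ± 0.0702 in MB468res-R8), as did PLA2G6 (-0.57 ± 0.114 and -1.88 ± 0.13). The lysosomal phospholipase gene PLA2G15 rose in MB468 (0.89 ± 0.0756) and fell in MB468res-R8 (-0.25 ± 0.08).

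Of 5 ether lipid genes, 0 rose and 3 fell in MB468 (edgeR), while 3 rose and 1 fell in MB468res-R8. FAR1, the fatty acyl-CoA reductase of that pathway, fell in MB468 (-0.35 ± 0.0478) and rose in MB468res-R8 (0.46 ± 0.0483). TMEM189, also named PEDS1 and coding for the plasmanylethanolamine desaturase, fell in MB468res-R8 (-0.75 ± 0.0681) and was at -0.02 in MB468 (adjusted p = 0.751). SGMS1, a sphingomyelin synthase gene whose product consumes phosphatidylcholine, rose in both lines (0.84 ± 0.0734 and 0.27 ± 0.0739), and SGMS2 rose in MB468 (0.20 ± 0.0579) and fell in MB468res-R8 (-0.78 ± 0.0617). Of 4 tested choline oxidation genes, 2 fell in MB468 and 4 in MB468res-R8, ALDH7A1 in both (-0.87 ± 0.0408 and -0.49 ± 0.0403). The falls in MB468res-R8 include genes with only a few counts per library, so the 4 falls are not equally well measured. Of 6 tested small-molecule methyltransferases that use SAM as PEMT does, 4 fell in MB468 and 1 in MB468res-R8. HNMT, the histamine methyltransferase, was the 1 that fell in MB468res-R8 (-0.44 ± 0.0737, adjusted p = 2.04e-06), and it also fell in MB468 (-0.67 ± 0.0761).

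Directions at 12 h in MB468 depended on the scaling. With the added spike-in RNAs as library sizes in place of the gene-based factors, the median log2 change of all genes moved from 0.01 to -0.23 in MB468 at 12 h and from -0.02 to 0 in MB468res-R8. The share of calls that were higher went from 51 to 30% in MB468 at 12 h and from 46.3 to 69.9% for the difference. It went from 51.8 to 14% in MB468 at 0.5 h, from 54.3 to 2.52% in MB468 at 2 h, from 41.4 to 79.2% for the difference at 0.5 h, from 43.2 to 93% for the difference at 2 h, and from 49.4 to 15% between the lines at 0 h. In MB468 at 12 h the spike-in values were 0.22 for PISD (adjusted p = 0.15), 0.17 for PTDSS1 (adjusted p = 0.25) and -0.04 for PCYT1A (adjusted p = 0.798), so these rises were not called and that of PCYT1A changed sign. In all, 5 members were called there, beside 57.4% of all genes. The falls of PCYT2 (-1.28), ETNK1 (-0.76), CHPT1 (-0.58), PEMT (-0.39) and CHKA (-0.36) were called. Relative to the shifted median the values were 0.45 for PISD, 0.40 for PTDSS1 and 0.19 for PCYT1A. In MB468res-R8, CHPT1 (0.34), PTDSS1 (0.76) and PCYT2 (-0.54) kept their calls, and ETNK1 (-0.21, adjusted p = 0.215) and PISD (-0.18, adjusted p = 0.304) lost theirs. For the difference at 12 h, PEMT, PCYT2, CHPT1, ETNK1 and PTDSS1 were again higher in MB468res-R8 (0.50, 0.74, 0.93, 0.55 and 0.59), and PISD was at -0.40 (adjusted p = 0.0843). In MB468 at 2 h, where the median moved to -0.42, 7 members were called beside 64.5% of all genes. There PEMT changed sign from 0.07 to -0.34 (adjusted p = 0.0305) and PTDSS1 from 0.02 to -0.40 (adjusted p = 0.00573). At 0 h, where the median moved to -0.31, PCYT1A changed sign to -0.11 (adjusted p = 0.493).

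Across the 24 libraries, the genes whose log2 level followed PEMT most closely among 9874 compared were CDK5RAP1 (Pearson r = 0.734), DCTPP1 (0.732) and CYC1 (0.728). For PCYT1A they were C11orf24 (0.969), KEAP1 (0.918) and SNX30 (0.91). Between members, PCYT2 and PTDSS1 ran most nearly opposite (r = -0.826), followed by PCYT1A and ETNK1 (-0.776). The points share 8 groups and their libraries, so these values describe the pattern over groups and carry no test.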

How the data were processed

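Poly(A) RNA with added ERCC spike-in RNAs was sequenced as single-end reads. According to the submitters' processing notes and the methods, the authors aligned reads with HISAT2 2.1.0 to GRCh38/hg38 and counted them per gene with featureCounts (Subread 1.5.3); the annotation and the handling of overlapping genes are not given in the sources used here. The deposited table of raw counts holds 26645 gene entries and 92 spike-ins in 24 libraries, and no per-sample column was left out of it. A deposited table of the authors' DESeq2-normalized counts for 18 libraries and a table of their fold changes and p-values were not used.

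The analysis ran edgeR 4.0.16 under R 4.3.3: filterByExpr (minimum count 10, total 15) kept 14741 genes, TMM factors scaled libraries, and a robust quasi-likelihood model with 8 group means gave each contrast. A gene was called where its p, adjusted over all tested genes by Benjamini-Hochberg, was below 0.05. For the difference between the lines, the MB468 response was subtracted from the MB468res-R8 response. Normalized counts are counts over the TMM effective library size times its mean. RPKM used the total counts of each library with the spike-ins included, without TMM, and the GENCODE canonical transcript. The score of PEMT against the choline route used log2 CPM with a prior count of 2. Named were all members and, from each other list, up to 2 called genes per direction with the largest change at 12 h, of which those not described are left out. Alternatives were DESeq2 1.42.0 (size factors, Wald test), spike-in totals as library sizes, other filters, fewer libraries, a replicate block, an adjusted p of 0.01 and leaving out each library; a route without CHKB was added after seeing the data. The members and lists were chosen with earlier results of these data known.

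On simulated counts for the 12 h comparison in MB468 (14226 genes), 100% of 100 genes changed by 1 on the log2 scale and 94% of 100 changed by 0.5 were called, and 5.37% of calls were unchanged genes. Every simulated gene had the same dispersion, and the changed genes were few and not of low count. The simulation therefore did not test the scaling under broad changes or the spread of the real genes. No pair of replicates agreed within sampling noise (the lowest chi-square per gene was 2.28). Replicate numbers come from the library names; deviations of same-numbered libraries from their group means correlated at -0.145 to 0.277 on average, so the numbers were not taken to pair libraries.

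Values of 2 listed genes are not reported here.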

Additional observations from a re-analysis of the deposited data

Results flagged for a closer look

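The response at 12 h differed between the lines, by the contrast of the responses in edgeR's quasi-likelihood model, for 6 of the 9 tested members, beside 56.5% of all genes. The difference, MB468res-R8 minus MB468, was 0.66 on the log2 scale for CHPT1, which fell in MB468 and rose in MB468res-R8, and -0.65 for PISD, which rose in MB468 and fell in MB468res-R8. It was 0.48 for PCYT2, which fell less in MB468res-R8, and 0.33 for PTDSS1, which rose more. It was 0.28 for ETNK1 and 0.25 for PEMT, both near the threshold. With spike-in totals as library sizes in the same model, the PISD difference was not called (-0.40, adjusted p = 0.0843), and the others were.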

How the results depend on the processing

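For 54 gene and comparison pairs (all at 12 h and between the lines at 0 h, and at 0.5 and 2 h only those called), 810 values were recomputed under the alternatives: 729 kept direction and side of the threshold, 65 lost and 5 gained a call, and 11 changed sign. Of these pairs, 23 kept both under every setting. Over all 99 pairs, spike-in totals changed the sign of 21 values, took 13 calls away and added 8. Spike-in totals as library sizes gave 7 members called in MB468 at 2 h (64.5% of all genes), 5 in MB468 at 12 h (57.4%), 1 in MB468res-R8 at 0.5 h (13.7%), 3 in MB468res-R8 at 12 h (39.9%) and 3 between the lines at 12 h (58.7%). Among the sign changes were PEMT (-0.34), PTDSS1 (-0.40), ETNK1 (-0.26) and PISD (-0.29) in MB468 at 2 h, CHPT1 (-0.07) in MB468 at 0.5 h, PCYT1A (-0.04) and CEPT1 (-0.20) in MB468 at 12 h, PCYT1A (0.13) and CEPT1 (0.17) in the difference at 12 h, PCYT1A between the lines at 0 h (-0.11) and ETNK1 between the lines at 12 h (-0.04). No low-count filter and DESeq2's Wald test each gave 1 member called in MB468res-R8 at 2 h, and an adjusted p of 0.01 left 1 in MB468 at 2 h. The causes were not tested.

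Leaving out single libraries gave 1 to 3 members called in MB468 at 2 h (1 without MB468 0 h replicate 2 or MB468 2 h replicate 2), 0 to 1 in MB468res-R8 at 2 h and 0 to 1 for the difference at 0.5 h (1 without MB468res-R8 0 h replicate 1 in each). Values near 0 changed sign: CHKA for the difference at 12 h ranged from -0.01 to 0.14, ETNK1 between the lines at 12 h from -0.04 to 0.14, and CEPT1 in MB468res-R8 at 12 h from -0.08 to 0.01. None of these 3 was called with all libraries.

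Replicate numbers were not taken to pair libraries. With the replicate number as a block, 3 members were called in MB468 at 0.5 h, 8 in MB468 at 12 h, 5 in MB468res-R8 at 12 h and 5 for the difference at 12 h, ETNK1 (adjusted p = 0.0523) and PCYT1A in MB468 at 0.5 h (adjusted p = 0.0566) being the calls lost. PEMT against PCYT1A alone moved by -0.35 in MB468 at 12 h, by 0.37 for the difference and by -0.31 between the lines at 0 h, beside -0.02, 0.18 and -0.01 with the route of 5 genes, and without CHKA and CHKB it was -0.02 in MB468res-R8. The few counts of CHKB and PCYT1B allow no comparison.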
